A study of Mus musculus with 42 samples.

Results

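The 42 genes of collagen folding and the secretory pathway described here were listed by symbol for their known roles. They come from 26323 genes named in one RNA table and 35972 in the other. No cut on measured values was used, but earlier results of these data were known when the list was made. They comprised 4 subunits of the translocon, 15 chaperones and protein disulphide isomerases of the endoplasmic reticulum (ER), 8 collagen folding factors, 8 ER export and retrieval factors and 7 regulators of the unfolded protein response. All 42 were measured in both tables and all 42 passed the filter on low values in every fit.

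The study profiled sorted mouse lung mesenchyme by RNA-seq (21 libraries) and by ATAC-seq (21 libraries), in which a transposase marks accessible DNA. CD1 mice carried a Col1a1-GFP reporter, whose signal follows the Col1a1 promoter, and after a 45 min digestion of the lung, cells with GFP but without CD45, EpCAM and CD31 were sorted. These cells were grown for 5 days with 10% serum on collagen-coated silicone gels of 32 kPa or 0.2 kPa, or were collected fresh (sham), with 3 RNA libraries in each group. From C57BL/6 mice, cells marked by a Col1a2 lineage trace, whose mark stays once set, and negative for CD45 and EpCAM, with no CD31 gate named, were sorted 56 or 14 days after bleomycin, which injures the lung and leads to fibrosis, or after sham treatment, with 4 RNA libraries in each group; ages are not labelled. Whether the replicates of a group are separate mice or wells is not labelled. Each p-value thus rests on the variation among libraries alone, part or all of which may be technical. Cultured and sham CD1 cells differ by attachment, serum and time as well as by the gel, and these cannot be told apart. In C57BL/6, Xist, an RNA of the inactive X chromosome in female cells, was above 1 CPM (reads scaled to library size) in 4 of 4 day 56 libraries and 2 of 4 day 14 libraries, against 1 of 4 sham libraries, so that these groups differ in more than the injury.

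Secreted proteins enter the ER through the Sec61 channel, where chaperones of the Hsp70 and Hsp90 families and protein disulphide isomerases fold them. Procollagen has further needs: prolyl isomerases and prolyl hydroxylases prepare its chains, Serpinh1 (HSP47) binds the triple helix, and large carriers assembled from the COPII coat with the help of Mia3 (TANGO1) export it to the Golgi. When unfolded proteins accumulate, the sensors ATF6, IRE1 and PERK raise the genes of this machinery, a programme called the unfolded protein response.

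Recovered reads on named genes numbered 34313376 to 67721210 per CD1 library and 14288605 to 51288435 per C57BL/6 library. A level is given below in RPKM, the normalised reads per kilobase of the longest curated RefSeq transcript on 1 scale within a strain, and levels are not compared between strains. A change is a log2 difference with its standard error, and a gene is said to have risen or fallen where its adjusted p was below 0.05 in limma. The CD1 libraries differed in how short transcripts (under 1000 bases) stood against long ones (over 5000 bases). This log2 difference was 1.01, 0.95 and 0.17 on 32 kPa gels and 0.34, 0.36 and 0.58 on 0.2 kPa gels, against -1.46, -0.77 and -1.26 in sham cells. It thus moved with culture, and a change is also given after a correction for transcript length where the correction alters its call or moves a called value by over 1.5 times. In C57BL/6 it was -0.47, 0.91, 0.13 and -0.58 at day 56, 0.29, 0.23, 0.14 and 0.11 at day 14, and 0.36, -0.23, -0.65 and -0.32 in sham mice. All 7 mesenchymal markers were detected in every group, with a summed level of 4409 to 4744 CPM on 32 kPa and 4583 to 5393 CPM on 0.2 kPa gels, against 32329 to 36352 CPM in sham cells. In bulk samples, fewer cells of a type and less RNA per cell cannot be told apart.

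By level per kilobase, Serpinh1 ranked first of the 42 members in all 3 C57BL/6 groups, and in CD1 cells Calr ranked first on both gels and Hspa5 in sham cells. Atf6, the membrane-bound stress sensor, ranked last in the 3 CD1 groups, and Hyou1, a large ER Hsp70-like protein, ranked last in the 3 C57BL/6 groups. The members whose rank differed most after injury were Ppic, which ranked 2 at day 14 and 14 in sham mice, and Herpud1, which ranked 25 at day 14 and 13 in sham mice. Summed over members, the module took 1.45 to 1.54% of reads on 32 kPa gels and 1.62 to 1.68% on 0.2 kPa gels, against 1.55 to 1.72% in sham cells. The 10 collagen and fibronectin genes that the machinery serves took 0.87 to 1.12% on 32 kPa and 0.99 to 1.07% on 0.2 kPa gels, against 4.73 to 6.41% in sham cells. In C57BL/6 mice the module took 1.58 to 2.09% at day 56 and 1.90 to 2.27% at day 14, against 1.37 to 1.68% in sham mice. The cargo genes took 1.93 to 4.11% at day 56 and 9.50 to 11.7% at day 14, against 2.37 to 3.49% in sham mice. Reads of the module per read of cargo were therefore 1.38 to 1.69 on 32 kPa and 1.52 to 1.69 on 0.2 kPa gels, against 0.24 to 0.36 in CD1 sham cells, and were 0.42 to 1.08 at day 56 and 0.16 to 0.24 at day 14, against 0.48 to 0.70 in sham mice. The cargo share separated cultured from sham libraries and day 14 from sham libraries without overlap. The module's share also lay higher at day 14 than in sham mice without overlap. On 32 kPa gels it lay narrowly below CD1 sham, at most 1.54% against at least 1.55%, and on 0.2 kPa gels it overlapped with sham.

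**Figure D1:**
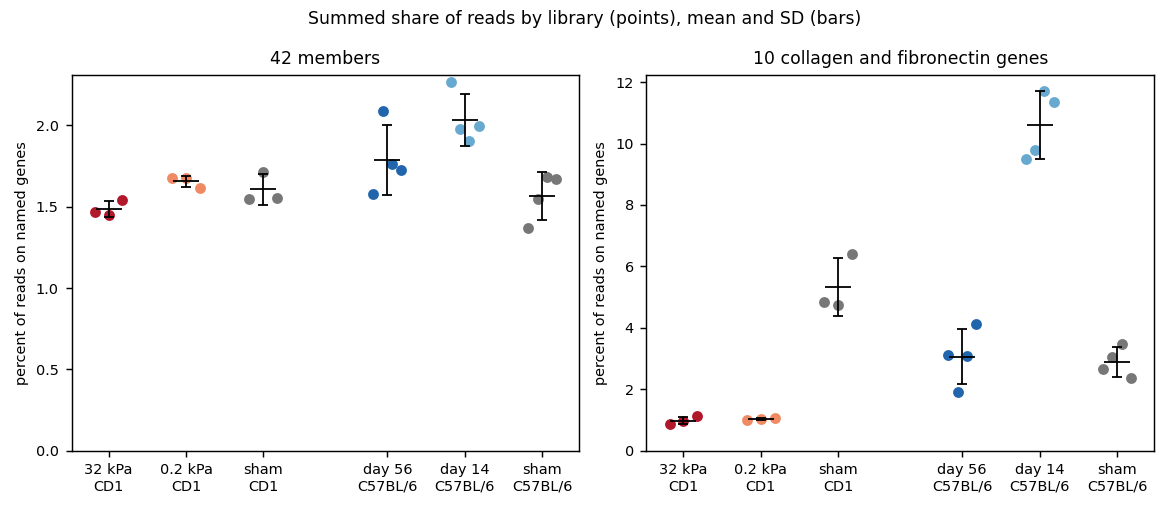
The percent of reads on named genes taken by the 42 members (left) and by 10 collagen and fibronectin genes (right), 1 point per library, with mean and SD as bars. The 6 cultured libraries sit between 1.45 and 1.68% for the members, close to the CD1 sham libraries, while for the cargo they sit at or below 1.12% against 4.73 to 6.41% in sham cells.

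Many genes of ER folding carry the ER stress response element (ERSE), CCAAT and CCACG separated by 9 bases, which the factors NF-Y and ATF6 or XBP1 recognise. RefSeq promoters of 300 bases (250 before to 50 after the start, build GRCm38) were found for 33 of the 42 members. Searched on both strands, the ERSE occurred in 7 of these 33, and in 37 of all 27025 genes with a promoter (0.137%). The 8 matches are shown with the fixed bases in capitals, each written on the strand that reads as the motif. They do not cover all targets of the stress response. Dnajb9 and Herpud1 had no exact match, and members without a promoter sequence were not searched.
Hspa5, chr2:34772025-34772043, plus strand: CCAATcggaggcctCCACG
Hsp90b1, chr10:86705533-86705551, plus strand: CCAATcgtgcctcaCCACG
Hsp90b1, chr10:86705638-86705656, minus strand: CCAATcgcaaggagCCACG
Calr, chr8:84847075-84847093, plus strand: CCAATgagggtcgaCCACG
Canx, chr11:50325800-50325818, minus strand: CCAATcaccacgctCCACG
Creld2, chr15:88819520-88819538, minus strand: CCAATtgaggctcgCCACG
Dnajc3, chr14:118937827-118937845, plus strand: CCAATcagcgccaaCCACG
Pdia6, chr12:17266491-17266509, plus strand: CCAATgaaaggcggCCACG

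The core of the UPR element, TGACGTGG, was found in the promoters of Kdelr3, Sec23a and Sec24d, and in 0.714% of all genes with a promoter. The C/EBP-ATF element TTGCATCA, which ATF4 binds, was found in that of Herpud1 and in 1.03% of genes. None of these letters overlapped an ERSE match. The 7 members with an ERSE did not move as a block in culture: on 32 kPa gels Canx and Calr rose, Hspa5, Dnajc3, Hsp90b1 and Creld2 fell, and Pdia6 was not called. On 0.2 kPa gels 2 rose, 2 fell and 3 were not called. Of the 26 searched members without an ERSE, 4 rose and 13 fell on 32 kPa and 5 rose and 14 fell on 0.2 kPa gels. Over all tested genes 32.4% rose and 41% fell on 32 kPa and 31.9% rose and 39.2% fell on 0.2 kPa gels. The 32 kPa calls of Calr and Hsp90b1 depended on single libraries, as given below. The promoters of Hspa5 and Canx are printed in full upstream of the start, because both hold the element and their RNA moved in opposite directions in culture. ERSE bases are in capitals, and both are written on the strand of the gene.
Hspa5, chr2:34771840-34772089, plus strand: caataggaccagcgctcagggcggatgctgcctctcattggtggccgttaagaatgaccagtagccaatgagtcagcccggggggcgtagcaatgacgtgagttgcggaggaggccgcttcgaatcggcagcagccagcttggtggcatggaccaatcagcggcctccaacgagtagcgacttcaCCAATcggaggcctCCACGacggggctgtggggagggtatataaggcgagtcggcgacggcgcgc
Canx, chr11:50325674-50325923, minus strand: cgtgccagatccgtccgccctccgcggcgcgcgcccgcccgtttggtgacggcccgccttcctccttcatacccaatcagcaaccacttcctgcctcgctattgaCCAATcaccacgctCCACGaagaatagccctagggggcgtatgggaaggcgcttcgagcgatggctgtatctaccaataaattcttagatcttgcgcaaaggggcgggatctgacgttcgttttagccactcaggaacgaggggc

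The first comparison asked how the machinery of cultured cells differed from that of fresh cells. On 32 kPa gels 10 members rose and 21 fell, where 32.4% of 18480 tested genes rose and 41% fell, and on 0.2 kPa gels 11 rose and 19 fell, where 31.9% rose and 39.2% fell. The members' shares called were thus near those of all genes, and their median log2 changes, -0.30 on 32 kPa and -0.27 on 0.2 kPa gels, stood beside -0.26 and -0.22 for all genes. Within the module the roles parted. All 4 translocon subunits rose on both gels, 5 of 8 collagen folding factors fell, and of the 7 stress regulators 5 fell on 32 kPa and 6 on 0.2 kPa gels. With reads scaled by library total, which moved the median of all genes to -0.13 on 32 kPa and -0.02 on 0.2 kPa gels, 13 members rose and 16 fell on 32 kPa gels and 14 rose and 14 fell on 0.2 kPa gels. Under that scaling Hsp90b1, Hyou1, Creld2, Creb3l1 and Sec23a were no longer called on 32 kPa gels, nor Pdia4, Atf4, Sec24d, Sec31a and Lman1 on 0.2 kPa gels. P4hb and Ddit3 on 32 kPa, Pdia3 and Dnajb11 on 0.2 kPa and Ppic on both gels were then called higher. The sets on both gels shared 10 members that rose and 17 that fell, but both were set against the same sham libraries. The overlap between the gels over all genes was not counted.

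**Figure D2:**
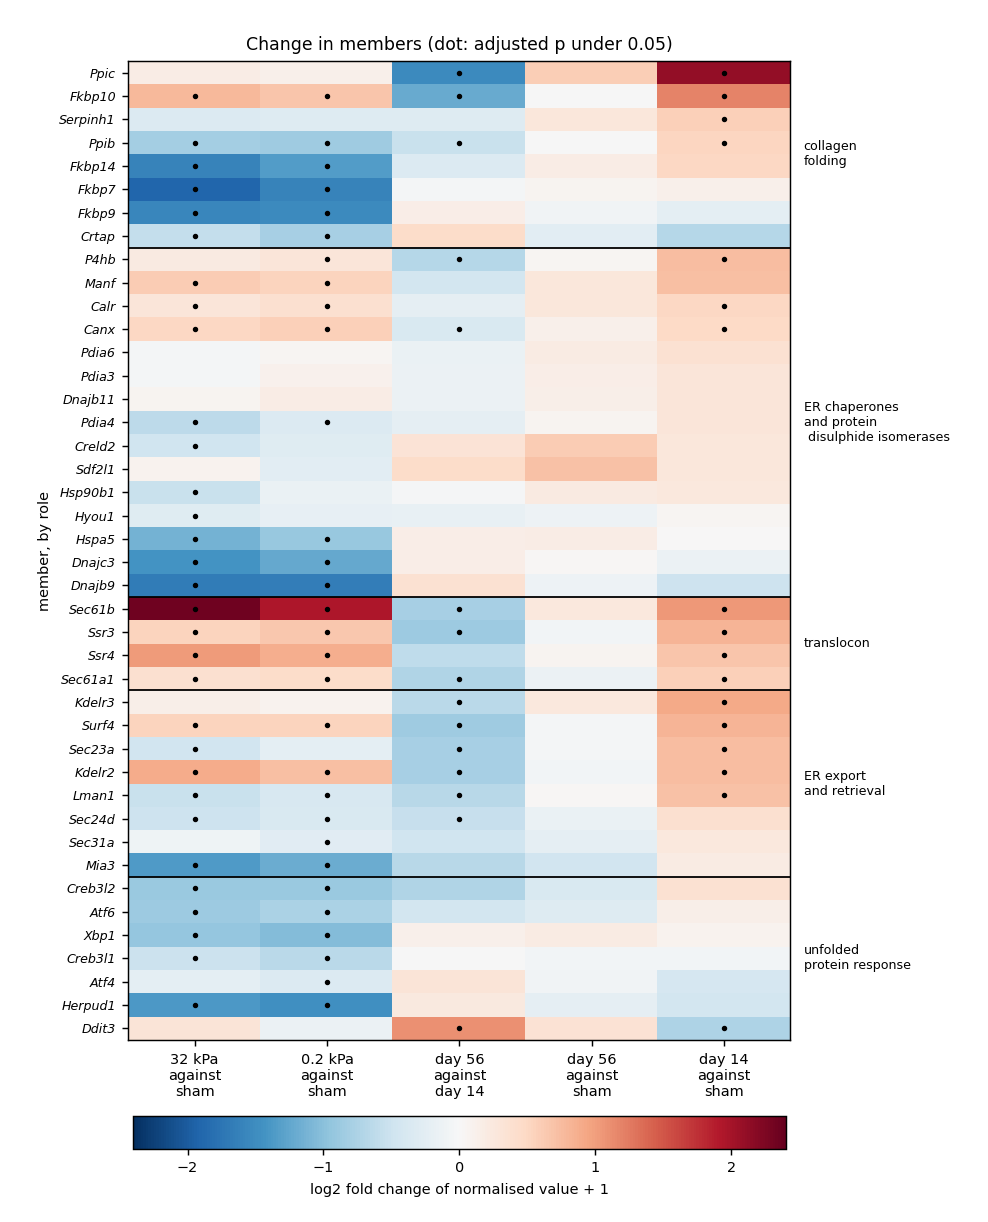
Log2 change of the 42 members (rows, by role, ordered by their change at day 14) in 5 comparisons, from -2.4 (blue) to 2.4 (red), with a dot where the adjusted p was below 0.05. The translocon rows are red and dotted on both gels and at day 14, and the day 56 against sham column holds no dot.

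Sec61b, the beta subunit of the Sec61 channel, had 256, 245 and 121 RPKM on 32 kPa gels, 131, 135 and 185 on 0.2 kPa gels, and 28.4, 55.1 and 36.9 in sham cells. The 6 cultured libraries all lay above sham, with log2 differences of 2.34 ± 0.30 on 32 kPa (adjusted p = 3.72e-05) and 1.94 ± 0.30 on 0.2 kPa gels (adjusted p = 0.000169). Its transcript is 552 bases long, and after the correction for length the differences were 1.05 and 0.94. Ssr4, a subunit of the translocon-associated protein complex that assists the channel, had 162, 149 and 110.2 RPKM on 32 kPa gels, 122, 120.1 and 134 on 0.2 kPa gels, and 56.02, 81.3 and 69.6 in sham cells. Cultured libraries did not overlap with sham, and the differences of 1.02 ± 0.16 and 0.88 ± 0.16 became 0.13, no longer called, and 0.19 after length correction. Ssr3, of the same complex, had 262, 250.7 and 241 RPKM on 32 kPa gels, 281, 267 and 259.5 on 0.2 kPa gels, and 174, 186 and 159 in sham cells. Its rise of 0.54 ± 0.10 on 32 kPa and 0.64 ± 0.10 on 0.2 kPa gels was 0.60 and 0.69 after that correction. Sec61a1, the pore-forming subunit, rose by 0.39 and 0.44 on the log2 scale. An antisense transcript, Gm44170, overlaps 18% of its bases, and no source used here gives the strand setting of the counting.

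Of the 15 ER chaperones and disulphide isomerases, 3 rose and 7 fell on 32 kPa gels and 4 rose and 4 fell on 0.2 kPa gels. With reads scaled by library total these counts became 4 and 4 on 32 kPa and 6 and 3 on 0.2 kPa gels, so the group had no direction that held under both scalings. Hspa5, the ER Hsp70 chaperone BiP, had 367, 361 and 443 RPKM on 32 kPa gels, 473, 469.6 and 419.6 on 0.2 kPa gels, and 822, 900.1 and 835 in sham cells. Sham libraries lay far above the 6 cultured ones, and the differences were -1.13 ± 0.12 on 32 kPa (adjusted p = 1.01e-05) and -0.91 ± 0.12 on 0.2 kPa gels (adjusted p = 6.13e-05). Dnajb9 (ERdj4), an Hsp40 partner of BiP and a target of XBP1, had 32.6, 30.6 and 28.2 RPKM on 32 kPa gels, 32.2, 31.1 and 29.7 on 0.2 kPa gels, and 116, 104 and 77.3 in sham cells. It fell by 1.69 and 1.66 on the log2 scale without overlap, and Dnajc3, another BiP partner, fell by 1.43 and 1.22. The Dnajc3 transcript has 5190 bases, and after length correction its differences were -0.81 and -0.68, both still called. Hsp90b1 (GRP94), the ER Hsp90, had 410.4, 377 and 589 RPKM on 32 kPa gels, 633, 590.4 and 519.9 on 0.2 kPa gels, and 649.6, 663 and 633 in sham cells. 32 kPa library 3 stood near the 0.2 kPa gels and apart from the other two, so the fall of 0.53 on 32 kPa gels was no longer called without 32 kPa library 1 (-0.46) or 32 kPa library 2 (-0.40), and the difference was -0.14 without both. On 0.2 kPa gels its difference was -0.16 ± 0.17, not called. A pseudogene transcript overlaps 15% of its bases.

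Calr, a lectin chaperone for glycoproteins, had 807, 807 and 726 RPKM on 32 kPa gels, 846, 818 and 826 on 0.2 kPa gels, and 604, 693 and 627 in sham cells. Both gels lay above sham, with differences of 0.28 ± 0.11 (adjusted p = 0.0419) and 0.38 ± 0.11 (adjusted p = 0.012). The call on 32 kPa gels ended without 32 kPa library 1 or 2, 0.2 kPa library 1, 2 or 3, sham library 1 or 3 (log2 0.24 to 0.28), and after length correction (0.06), which left 0.21 on 0.2 kPa gels. Canx, its membrane-bound counterpart, rose by 0.49 and 0.58, and by 0.91 and 0.95 after length correction. P4hb, a disulphide isomerase that is also the beta subunit of collagen prolyl 4-hydroxylase, had 426, 442 and 418 RPKM on 32 kPa gels, 454, 451 and 442 on 0.2 kPa gels, and 356, 374 and 371 in sham cells. Its difference was 0.22 ± 0.10 on 32 kPa gels, not called (adjusted p = 0.0639; called without sham library 2 (0.24) and after length correction, 0.27), and 0.29 ± 0.10 on 0.2 kPa gels (adjusted p = 0.023), a call that ended without 0.2 kPa library 1, 2 or 3, sham library 1 (log2 0.27 to 0.30). Pdia6, another isomerase, had 214, 211 and 212 RPKM on 32 kPa gels, 229.7, 229 and 224 on 0.2 kPa gels, and 193, 258 and 213 in sham cells. Its groups overlapped and it was called on neither gel, with differences of -0.05 ± 0.11 and 0.05 ± 0.11. Pdia4 fell by 0.63 on 32 kPa and 0.32 on 0.2 kPa gels, the last not called without 0.2 kPa library 3 (-0.26) or sham library 2 (-0.26).

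Manf, a secreted ER stress factor, had 277, 294 and 186 RPKM on 32 kPa gels, 231, 233 and 246 on 0.2 kPa gels, and 142, 219.6 and 138 in sham cells. It was called higher on both gels (0.61 ± 0.20 and 0.54 ± 0.20), but after length correction its differences were -0.32, called lower, and -0.18, not called. Its transcript has 868 bases, an antisense gene overlaps 14.4% of them, and the second sham library lay near the gels. Its call on 32 kPa gels ended without 32 kPa library 1 or 2, sham library 1 or 3 (log2 0.48 to 0.52), and that on 0.2 kPa gels without 0.2 kPa library 1, 2 or 3, sham library 1 or 3 (log2 0.42 to 0.56). Sdf2l1, a cofactor of the BiP cycle, had 25.9, 28.1 and 13.2 RPKM on 32 kPa gels, 14.95, 16.95 and 18.7 on 0.2 kPa gels, and 15.5, 29.7 and 17.7 in sham cells. Its groups overlapped, with the first and second 32 kPa and the second sham libraries high, and it was not called (0.08 ± 0.30 and -0.26 ± 0.30), though it was called lower after length correction (-0.64 and -0.82). Creld2, a stress-induced protein with isomerase activity, had 47.1, 45.1 and 43.6 RPKM on 32 kPa gels, 50.7, 50.7 and 52.1 on 0.2 kPa gels, and 52.1, 83.4 and 57.2 in sham cells. It fell on 32 kPa gels (-0.47 ± 0.15) and had a difference of -0.30 ± 0.15 on 0.2 kPa gels, which was called without sham library 1 (-0.43). After length correction it was called lower on both gels (-1.02 and -0.72). Hyou1 fell by 0.28 on 32 kPa gels, a call that ended without 32 kPa library 1 or 2, 0.2 kPa library 2, sham library 2 (log2 -0.29 to -0.17) and was 0.18, not called, after length correction. Pdia3 and Dnajb11 were called on neither gel, with differences between -0.04 and 0.18, and Dnajb11 was called higher on 0.2 kPa gels without sham library 2 (0.28).

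The collagen folding factors parted most widely. Fkbp7, an ER prolyl isomerase of the FKBP family, had 25.7, 26.2 and 25.6 RPKM on 32 kPa gels, 32.6, 31.7 and 31.6 on 0.2 kPa gels, and 91.3, 105 and 96.2 in sham cells. Every cultured library lay far below every sham library, and it fell by 1.91 on 32 kPa (adjusted p = 1.28e-08) and 1.61 on 0.2 kPa gels (adjusted p = 5.05e-08). Fkbp14, an isomerase whose loss causes a form of Ehlers-Danlos syndrome in humans, had 13.4, 13.3 and 14.6 RPKM on 32 kPa gels, 17.7, 15.9 and 15.7 on 0.2 kPa gels, and 41.5, 40.8 and 42.7 in sham cells. It fell by 1.60 and 1.34 without overlap. Fkbp9, a further member of the family, had 93.2, 87.9 and 95.3 RPKM on 32 kPa gels, 101, 90.6 and 90.7 on 0.2 kPa gels, and 265, 295 and 259 in sham cells. It fell by 1.56 and 1.53, again without overlap. Fkbp10 (FKBP65), which supports collagen crosslinking, went the other way, with 115, 119.9 and 106 RPKM on 32 kPa gels, 96.9, 105 and 114 on 0.2 kPa gels, and 60.1, 65.8 and 72.5 in sham cells. It rose by 0.78 and 0.67 on the log2 scale, with all 6 cultured libraries above sham, and Nt5c3b on the other strand overlaps 7.4% of its bases. After length correction these 4 genes kept their calls and directions on both gels.

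Ppib (cyclophilin B), which works in a complex that hydroxylates a single proline of collagen, had 262, 256 and 201 RPKM on 32 kPa gels, 230.3, 224 and 239.9 on 0.2 kPa gels, and 350.3, 521 and 404 in sham cells. It fell by 0.82 and 0.86 without overlap, but Snx22 on the other strand overlaps 54.2% of its bases. After length correction the differences of Ppib were -1.66 and -1.51. Crtap, a partner in the same complex, had 90.5, 100.1 and 55.3 RPKM on 32 kPa gels, 64.5, 66.03 and 75.9 on 0.2 kPa gels, and 103, 140.3 and 115 in sham cells. It fell by 0.58 on 32 kPa and 0.79 on 0.2 kPa gels, and the first of these calls ended without 32 kPa library 3 (-0.32) or sham library 2 (-0.46) or sham library 3 (-0.60) and was -0.91 after length correction. Serpinh1 (HSP47), the collagen-specific chaperone, had 443, 379 and 403 RPKM on 32 kPa gels, 382, 405 and 440.0 on 0.2 kPa gels, and 412, 607 and 526 in sham cells. The groups overlapped and it was not called (-0.32 ± 0.15 and -0.32 ± 0.15), but it was called lower on both gels without sham library 1 (-0.47 on each) and after length correction (-0.41 and -0.37). Ppic (cyclophilin C) had 157, 142 and 136 RPKM on 32 kPa gels, 142, 139.8 and 134 on 0.2 kPa gels, and 120.2, 147 and 117 in sham cells. It was not called (0.19 ± 0.11 and 0.12 ± 0.11), was called higher on both gels without sham library 2 (0.29 and 0.23), and was called lower after length correction (-0.41 and -0.34).

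Of the 8 export and retrieval factors, 2 rose and 4 fell on each gel. Mia3 (TANGO1), the ER exit receptor for procollagen, had 13.5, 14.4 and 16.1 RPKM on 32 kPa gels, 16.3, 16.6 and 16.2 on 0.2 kPa gels, and 41.9, 31.9 and 39.3 in sham cells. It fell by 1.36 and 1.19 without overlap. Its transcript has 6678 bases, and after length correction the differences were -0.59 and -0.51, both still called. Sec23a, a COPII inner coat subunit, had 27.5, 23.9 and 34.9 RPKM on 32 kPa gels, 35.7, 33.3 and 30.1 on 0.2 kPa gels, and 42.5, 35.4 and 39.3 in sham cells. It fell by 0.46 on 32 kPa gels, not called without 32 kPa library 2 (-0.33) or sham library 1 (-0.39) or after length correction (-0.08), and its difference on 0.2 kPa gels was -0.24 ± 0.14. Sec24d, the cargo-binding COPII subunit, had 47.6, 41.5 and 58.2 RPKM on 32 kPa gels, 55.6, 52.3 and 51.6 on 0.2 kPa gels, and 68.6, 66.8 and 69.9 in sham cells. It fell by 0.49 and 0.37, the last not called without 0.2 kPa library 2 (-0.35) or 0.2 kPa library 3 (-0.34) or sham library 3 (-0.35), and after length correction neither was called (-0.18 and -0.10). Sec31a, of the outer coat, fell by 0.28 on 0.2 kPa gels, not called without 0.2 kPa library 1 (-0.26) or 0.2 kPa library 2 (-0.27) or sham library 3 (-0.25), and had a difference of -0.11 ± 0.09 on 32 kPa gels. After length correction Sec31a was called higher on 32 kPa gels (0.30) and not called on 0.2 kPa gels (0.08).

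Kdelr2, a receptor that returns KDEL-tailed chaperones to the ER, had 181, 186 and 110.2 RPKM on 32 kPa gels, 131, 132 and 152 on 0.2 kPa gels, and 76, 96.7 and 77.9 in sham cells. It rose by 0.90 and 0.73 with all cultured libraries above sham, although without both 32 kPa libraries 1 and 2 its difference on that gel was 0.41 and not called. Kdelr3, its paralogue, had 106, 93.9 and 75.3 RPKM on 32 kPa gels, 85.6, 86.7 and 90.6 on 0.2 kPa gels, and 71.3, 90.9 and 86.4 in sham cells. The groups overlapped and it was not called (0.14 ± 0.14 and 0.09 ± 0.14), but it was called lower after length correction (-0.38 and -0.31). Surf4, a cargo receptor for soluble proteins, rose by 0.53 and 0.53, and Lman1, a receptor for glycoproteins, fell by 0.53 and 0.38, which were -0.29 and -0.17 after length correction.

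Among the regulators of the unfolded protein response, none rose. Xbp1, whose messenger RNA is spliced by IRE1, had 79.3, 78.3 and 55.6 RPKM on 32 kPa gels, 64.8, 62.98 and 67.4 on 0.2 kPa gels, and 123, 159 and 123 in sham cells. It fell by 0.94 and 1.04 without overlap, and the values do not separate its spliced form. Herpud1, a degradation factor that stress induces, fell by 1.38 and 1.47, and Creb3l2, a sensor-like factor of secretory cells, by 0.89 and 0.88. Creb3l1, a relative that drives collagen secretion, had 41.3, 40.6 and 27.96 RPKM on 32 kPa gels, 28.7, 32.4 and 38.5 on 0.2 kPa gels, and 42.5, 64.2 and 50.8 in sham cells. It fell by 0.52 and 0.65, and its call on 32 kPa gels ended without 32 kPa library 3 (-0.34) or sham library 2 (-0.37) or sham library 3 (-0.53). Atf6 fell by 0.87 and 0.75, but its transcript has 7463 bases and after length correction the differences were -0.04 and 0.00. Atf4, the translation-controlled factor downstream of PERK, had 195, 183 and 159 RPKM on 32 kPa gels, 167, 163 and 173 on 0.2 kPa gels, and 195, 223 and 213 in sham cells. It fell on 0.2 kPa gels by 0.33, not called without 0.2 kPa library 2 (-0.31), and its difference of -0.24 ± 0.10 on 32 kPa gels was called without 32 kPa library 1 (-0.30) or sham library 1 (-0.29). After length correction Atf4 was called lower on both gels (-0.56 and -0.57). Ddit3 (CHOP), an ATF4 target linked to lasting stress, had 45.05, 47.4 and 32.2 RPKM on 32 kPa gels, 26.3, 29.7 and 34.2 on 0.2 kPa gels, and 30.6, 35.6 and 32.6 in sham cells. It was called on neither gel (0.32 ± 0.16 and -0.13 ± 0.16), was called higher on 32 kPa gels without 32 kPa library 3 (0.49), and was called lower after length correction (-0.61 and -0.85). Its transcript has 871 bases, of which Mars on the other strand overlaps 7.8%.

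**Figure D3:**
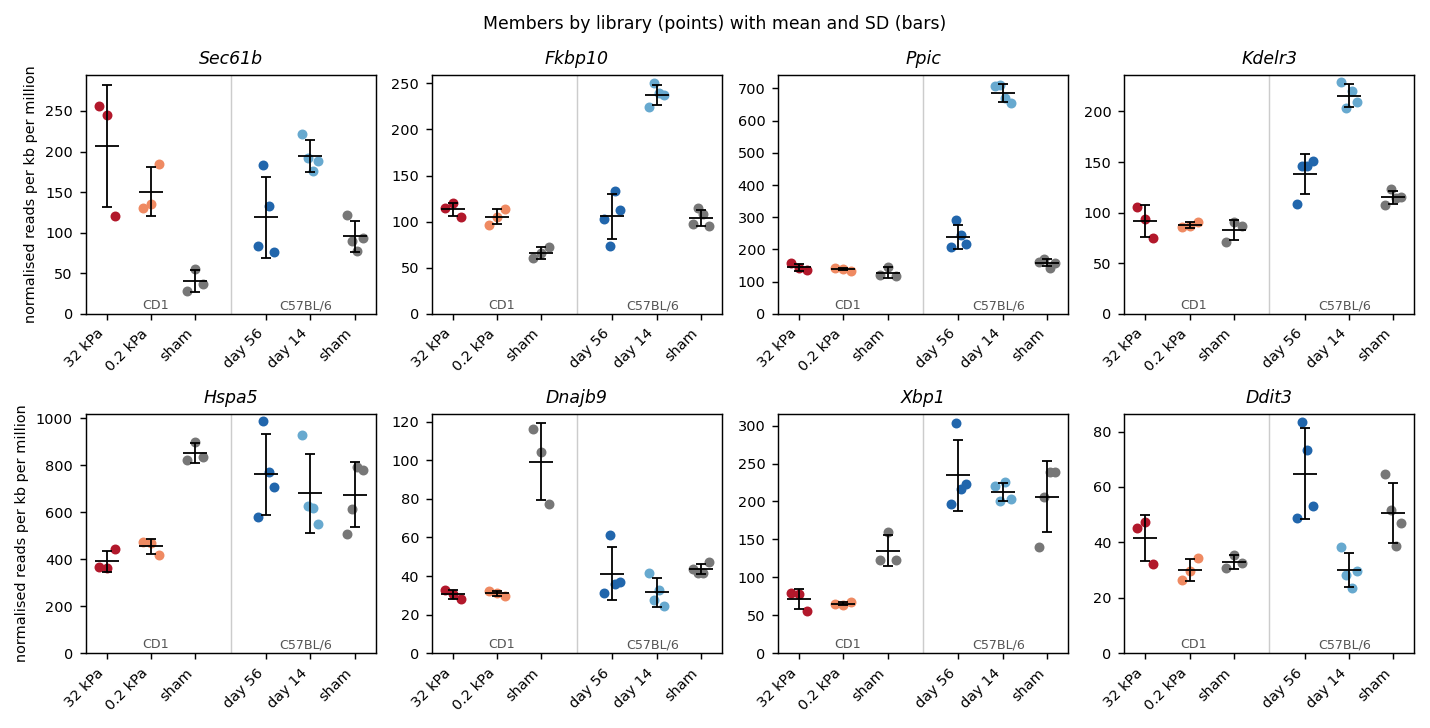
Levels of 8 members in each library (points, RPKM, axes from 0) with mean and SD as bars, CD1 at the left and C57BL/6 at the right of each panel. Sec61b lies above sham in all 6 cultured and all 4 day 14 libraries, Ppic and Kdelr3 rise at day 14 but not on the gels, and Hspa5, Dnajb9 and Xbp1 lie below sham on both gels.

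Genes of the same pathways outside the module were counted as well. Over all tested genes 32.4% rose and 41% fell on 32 kPa gels, and 31.9% rose and 39.2% fell on 0.2 kPa gels. Of 28 other ER chaperones and folding factors 10 rose and 14 fell on 32 kPa gels and 11 rose and 13 fell on 0.2 kPa gels. Of 22 other translocon and N-glycosylation genes 8 rose and 6 fell on 32 kPa and 10 rose and 5 fell on 0.2 kPa gels. Of 34 other coat and cargo receptor genes 9 rose and 12 fell on 32 kPa and 8 rose and 9 fell on 0.2 kPa gels. Of 28 other stress response and degradation genes 9 rose and 12 fell on 32 kPa and 7 rose and 14 fell on 0.2 kPa gels. The targets of ATF4 and CHOP stood apart in size: 15 of 20 rose and 3 fell on 32 kPa gels, and 15 rose and 4 fell on 0.2 kPa gels, with medians of 2.11 and 1.93 on the log2 scale. Chac1, a glutathione-degrading enzyme, rose by 6.26 ± 0.34 and 6.00 ± 0.34, and Asns, asparagine synthetase, by 5.25 ± 0.16 and 5.14 ± 0.16. Many of these genes serve amino acid supply, which ATF4 controls also without ER stress. The cause of the rise of these targets was not tested. Of 12 collagen-modifying enzymes 2 rose and 7 fell on 32 kPa and 3 rose and 7 fell on 0.2 kPa gels, and Colgalt2, a collagen galactosyltransferase, had the lowest differences (-9.43 ± 0.72 and -7.49 ± 0.72). Of the 10 cargo genes 9 fell on each gel and Col5a2 rose. Col6a2 fell furthest on 32 kPa gels, with a difference of -6.98 ± 0.15, and on 0.2 kPa gels Atf3, a stress factor that dissociation can induce, had a difference of -6.75 ± 0.12. Heat shock and dissociation genes summed to 3284 to 4080 CPM on 32 kPa and 3725 to 4170 CPM on 0.2 kPa gels, against 9811 to 10514 CPM in sham cells, and 6 of 7 tested plasma cell markers fell and 1 rose on each gel, with median differences of -4.35 and -3.99. Leukocyte markers summed to 7.23 to 7.43 CPM on 32 kPa and 6.99 to 13.6 CPM on 0.2 kPa gels, against 96.6 to 187 CPM in sham cells, with 4 of the 10, Cd52, Cd3e, C1qa and Marco, at 0 on 32 kPa gels. Endothelial markers summed to 9.97 to 11.3 CPM on 32 kPa and 11.04 to 12.5 CPM on 0.2 kPa gels, against 245 to 269.5 CPM in sham cells. The part of these in the members' changes was not tested.

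Stiffness was compared next. Between 32 kPa and 0.2 kPa gels no member was called, as was no gene of the 18480 tested (0% in each direction) in limma. At an unadjusted p below 0.05 there were 4 members, Pdia4 (-0.31 ± 0.11), Fkbp14 (-0.26 ± 0.09), Fkbp7 (-0.31 ± 0.09) and Ddit3 (0.45 ± 0.16), and edgeR and DESeq2 on the recovered reads called 0. The share of all genes at that unadjusted threshold was not counted, so these 4 are named as description and not as an effect of stiffness. The lowest adjusted p was 0.713, for Fkbp7, whose 32 kPa libraries all lay below its 0.2 kPa libraries. Without 32 kPa library 3, Ddit3 was called higher (0.63) and Hsp90b1 lower (-0.56).

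The second design asked how the module behaved in fibrosis and after it. At day 14 after bleomycin 16 members rose and 1 fell, where 9.57% of 21100 tested genes rose and 6.36% fell, and the median log2 change was 0.33 over the members and 0.05 over all genes. The risers were all 4 translocon subunits, 5 of 8 export factors, 4 of 8 collagen folding factors and 3 of 15 chaperones, and no stress regulator rose. With Xist as a term in the fit 12 members rose, Calr, Serpinh1, Ppib and Ssr4 being lost, and with reads scaled by library total 13 rose, without Serpinh1, Ppib and Ssr4. By day 56 against day 14, 14 members had fallen and 1 had risen, where 8.49% of genes fell and 5.71% rose. With deposited values, which put the median of all genes at -0.27 in that comparison and not at -0.08, 20 members fell. With reads scaled by library total, which put it at 0.03, 10 fell, and 10 fell with the Xist term. Canx, Ppib, Sec61b and Sec24d were no longer called with reads scaled by library total, nor with the Xist term. Against sham, no member was called at day 56, where 0% of genes rose and 0.00474% fell. At an unadjusted p below 0.05 there were 2 members in that comparison, Sdf2l1 (0.70 ± 0.29) and Ppic (0.59 ± 0.13, adjusted p = 0.255), and DESeq2 called Ppic and edgeR 0. The share of all genes at that unadjusted threshold was not counted here either. Of the 16 risers at day 14, 13 fell by day 56 against day 14, a pair of comparisons that shares the day 14 libraries. The matching share among all genes that rose at day 14 was not counted.

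Ppic had 206, 289.9, 244 and 217 RPKM at day 56, 708, 709.5, 670.1 and 654 at day 14, and 160.3, 170.1, 143 and 159 in sham mice. All day 14 libraries lay above all others, and day 56 libraries above sham. It rose by 2.12 ± 0.13 at day 14 (adjusted p = 3.73e-07) and fell by 1.53 by day 56 against day 14 (adjusted p = 9.12e-06). Fkbp10 had 103, 73.9, 133 and 113 RPKM at day 56, 224, 250.1, 240.1 and 237 at day 14, and 97.4, 114, 108 and 95.7 in sham mice. It rose by 1.20 ± 0.16 at day 14 (adjusted p = 0.000174), and at day 56 its libraries overlapped with sham. Serpinh1 had 684, 1036, 1072 and 826 RPKM at day 56, 1246, 984, 943 and 1249 at day 14, and 694, 719, 795 and 755 in sham mice. All day 14 libraries lay above sham and it rose by 0.57 ± 0.17 (adjusted p = 0.0361), a call that ended without day 14 library 1, 2 or 4, sham library 1, 2, 3 or 4 (log2 0.50 to 0.62). Ppib had 199.9, 322, 277 and 218 RPKM at day 56, 385, 359, 349 and 357 at day 14, and 295, 245, 232 and 243 in sham mice. It rose by 0.52 ± 0.15 at day 14, not called without day 14 library 1, 2, 3 or 4, sham library 2, 3 or 4 (log2 0.48 to 0.54) and 0.30 after length correction, and by day 56 against day 14 its difference was -0.54 ± 0.15, not called without day 56 library 1 or 4, day 14 library 1, 2, 3 or 4 (log2 -0.55 to -0.43).

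Fkbp7 had 110.2, 198, 154 and 115 RPKM at day 56, 155, 150.3, 140.3 and 136 at day 14, and 148, 124, 131 and 133 in sham mice. It was not called at day 14 (0.12 ± 0.17), and its second day 56 library was the highest of the 12. Fkbp14 had 30.3, 42.9, 28.2 and 37.4 RPKM at day 56, 51.9, 42.6, 38.7 and 39.5 at day 14, and 21.8, 33.6, 37.5 and 30.9 in sham mice. Its day 14 libraries lay above sham but it was not called (0.50 ± 0.19, adjusted p = 0.086), except after length correction (0.53). Fkbp9 had 237, 229, 236 and 256 RPKM at day 56, 211, 210.1, 217 and 221 at day 14, and 226, 243, 285 and 262 in sham mice. It was not called either (-0.24 ± 0.11), with every day 14 library below sham. Crtap had 74.6, 39.5, 20.9 and 14.8 RPKM at day 56, 11.6, 19.1, 29.01 and 42.5 at day 14, and 8.12, 43.3, 69.4 and 75.7 in sham mice. Its sham libraries held both the lowest and the highest of the 12 values, and no comparison in C57BL/6 was called (-0.69 ± 0.66 at day 14).

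All 4 translocon members rose at day 14, as did 7 of 22 other translocon and N-glycosylation genes, where 9.57% of all genes rose. Sec61b had 83.9, 184, 133 and 75.9 RPKM at day 56, 221, 192, 176 and 189 at day 14, and 122, 89.8, 77.04 and 93.6 in sham mice. Day 14 libraries lay above sham, with a difference of 1.04 ± 0.24 (adjusted p = 0.00908; 0.63 after length correction), and at day 56 the difference from day 14 was -0.80 ± 0.24, not called without day 56 library 1 or 4, day 14 library 1, 2, 3 or 4, sham library 2 or 4 (log2 -0.84 to -0.61) and -0.50, called, after length correction. Ssr4 had 64.6, 127, 97.6 and 66.7 RPKM at day 56, 135, 133, 139.7 and 118 at day 14, and 102, 82.7, 69.6 and 78.1 in sham mice. It rose by 0.67 ± 0.20 without overlap, a call that ended without day 14 library 1, 2, 3 or 4, sham library 2, 3 or 4 (log2 0.59 to 0.72). After length correction it rose by 0.43 at day 14 and was also called lower by day 56 against day 14 (-0.46). Ssr3 had 120.3, 136, 108 and 135 RPKM at day 56, 238, 236, 235 and 205 at day 14, and 120.2, 124, 144 and 133 in sham mice. It rose by 0.81 ± 0.12 at day 14 (adjusted p = 0.000468) and fell by 0.87 by day 56 against day 14. Sec61a1 rose by 0.58 ± 0.12 and fell by 0.72 by day 56 against day 14.

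At day 14, 5 of the 8 export and retrieval factors rose. Kdelr3 had 108, 147, 146 and 151 RPKM at day 56, 229, 203, 220.2 and 209.6 at day 14, and 108, 123, 115 and 115 in sham mice. It rose by 0.90 ± 0.13 at day 14 (adjusted p = 0.000283) without overlap, and its first day 56 library was at the sham level while the other three lay between sham and day 14. Kdelr2 had 70.7, 69.5, 69.9 and 73.1 RPKM at day 56, 118, 154, 131 and 98.9 at day 14, and 99, 74.1, 63.7 and 65.3 in sham mice. It rose by 0.74 ± 0.16, although its day 14 library 4 lay at the level of its sham library 1. Sec23a had 30.2, 26.4, 29.9 and 42.2 RPKM at day 56, 57.5, 55.2, 57.8 and 49.1 at day 14, and 30.3, 29.2, 41.5 and 31.1 in sham mice. It rose by 0.74 ± 0.16 (adjusted p = 0.00559) and fell by 0.79 by day 56 against day 14. Sec24d had 54.1, 41.8, 56.2 and 71.04 RPKM at day 56, 81.7, 81.5, 82.7 and 74.3 at day 14, and 54.1, 51.1, 80.4 and 62.3 in sham mice. The third sham library reached the day 14 level, and it was not called (0.39 ± 0.17) except after length correction (0.45), but by day 56 against day 14 it fell by 0.54, not called without day 56 library 1, 2 or 3, day 14 library 1, 2, 3 or 4, sham library 2 or 4 (log2 -0.58 to -0.41). Mia3 had 20.2, 13.4, 10.4 and 23.3 RPKM at day 56, 24.6, 25.96, 26.2 and 24.4 at day 14, and 18.1, 22.04, 26.7 and 21.8 in sham mice. It was called neither at day 14 (0.20 ± 0.21) nor by day 56 against day 14 (-0.66 ± 0.21), the last called without day 56 library 1 (-0.77) or day 56 library 4 (-0.84) or sham library 1 (-0.66) and after length correction (-0.62). Surf4 rose by 0.82 ± 0.12 and Lman1 by 0.70 ± 0.15 at day 14, and Sec31a had a difference of 0.26 ± 0.16, not called. By day 56 against day 14 Sec31a differed by -0.48 ± 0.16, not called, but called after length correction (-0.46) and without day 56 library 4 (-0.61).

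Of the chaperones P4hb, Calr and Canx rose at day 14. P4hb had 312, 374, 394 and 381 RPKM at day 56, 589, 582, 592 and 586 at day 14, and 349, 322, 377 and 369.9 in sham mice. It rose by 0.73 ± 0.12 (adjusted p = 0.00109) without overlap and fell by 0.69 by day 56 against day 14. Calr had 339, 465, 392 and 365 RPKM at day 56, 528, 414, 424 and 447 at day 14, and 278, 311, 351 and 343 in sham mice. It rose by 0.50 ± 0.14 without overlap, a call that ended without day 14 library 1 or 4, sham library 1 or 2 (log2 0.42 to 0.50). Canx rose by 0.48 ± 0.12, and by day 56 against day 14 its difference of -0.37 ± 0.12 was not called without day 56 library 1, 2 or 3, day 14 library 1, 2, 3 or 4, sham library 2, 3 or 4 (log2 -0.42 to -0.33) or after length correction (-0.35). Hspa5 had 578, 987, 772 and 707 RPKM at day 56, 928, 624, 619.5 and 549.7 at day 14, and 507, 615, 793 and 781 in sham mice. Groups overlapped throughout and its difference at day 14 was 0.01 ± 0.21 (adjusted p = 0.991). Hsp90b1 had 395, 543, 373 and 441 RPKM at day 56, 527, 435, 387 and 437 at day 14, and 313, 369.6, 428 and 387 in sham mice. It was not called (0.25 ± 0.16), nor was Pdia6, which had 222, 369, 271 and 247 RPKM at day 56, 373, 304, 264 and 292 at day 14, and 218, 223, 264 and 241 in sham mice, with a difference of 0.37 ± 0.16.

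Manf had 60.1, 186, 107 and 66.3 RPKM at day 56, 175, 128, 121 and 101 at day 14, and 69.6, 79.4, 79.4 and 84.8 in sham mice. Its day 14 libraries lay above sham, yet day 56 held both the lowest and the highest value, and its difference of 0.72 ± 0.29 was not called with all libraries but was without day 56 library 2 (0.72). Creld2 had 63.6, 156, 76.4 and 57.3 RPKM at day 56, 97.3, 55.3, 57.8 and 57.05 at day 14, and 33.6, 51.5, 69.6 and 68.1 in sham mice. In Creld2 and Hspa5 the first day 14 and second day 56 libraries were the highest of their groups, and Creld2 was not called (0.28 ± 0.31 at day 14, 0.60 ± 0.31 at day 56). Sdf2l1 had 32.9, 74.7, 47.7 and 32.5 RPKM at day 56, 52.4, 31.3, 24.2 and 28.5 at day 14, and 21.9, 21.7, 32.5 and 35.2 in sham mice. The same pair of libraries was high and it was not called (0.26 ± 0.29). Dnajb9 had 31.1, 61.5, 35.8 and 36.8 RPKM at day 56, 41.4, 27.4, 32.6 and 24.4 at day 14, and 43.9, 41.5, 41.5 and 47.3 in sham mice. All day 14 libraries lay below sham, with a difference of -0.50 ± 0.21, not called with all libraries but called without day 56 library 2 (-0.50). The other 5 chaperones, Pdia3, Pdia4, Hyou1, Dnajb11 and Dnajc3, were not called at day 14, with differences between -0.13 and 0.30.

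Among the stress regulators Ddit3 was the 1 member that fell at day 14. Ddit3 had 48.9, 83.4, 73.5 and 53.2 RPKM at day 56, 38.3, 28.3, 23.6 and 29.7 at day 14, and 64.7, 51.8, 38.6 and 47.2 in sham mice. Its day 14 libraries lay below sham, with a difference of -0.75 ± 0.22 (adjusted p = 0.0299), a call that ended without day 14 library 2, 3 or 4, sham library 1, 2 or 4 (log2 -0.78 to -0.62). By day 56 against day 14 it rose by 1.10 ± 0.22 (adjusted p = 0.00397), with no overlap between those times. Atf4 had 95.7, 137, 102 and 94.9 RPKM at day 56, 85.7, 83.9, 93.3 and 79.6 at day 14, and 119.7, 94.5, 109 and 133 in sham mice. It was lower in every day 14 than in every sham library, with a difference of -0.40 ± 0.15 that was called without day 56 library 2 (-0.40) and after length correction (-0.45). Xbp1 had 197, 303, 216 and 222 RPKM at day 56, 220.1, 200.5, 226 and 204 at day 14, and 139.7, 206, 239 and 239 in sham mice. Its groups overlapped (0.08 ± 0.18), as did those of Creb3l1, which had 44.2, 39.2, 30.2 and 21.5 RPKM at day 56, 29.5, 26.1, 37.8 and 39.3 at day 14, and 16.6, 32.5, 50.4 and 50.2 in sham mice, with a difference of -0.06 ± 0.32. Atf6, Creb3l2 and Herpud1 were not called at day 14 (0.14 ± 0.23, 0.37 ± 0.28 and -0.45 ± 0.16), and Creb3l2 was called lower by day 56 against day 14 without day 56 library 4 (-0.99) (main difference -0.73 ± 0.28).

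Outside the module, of 28 other ER chaperones and folding factors 6 rose and 0 fell at day 14, of 22 other translocon and N-glycosylation genes 7 rose and 0 fell, and of 34 other coat and cargo receptor genes 10 rose and 0 fell. Over all tested genes 9.57% rose and 6.36% fell at day 14. Of 28 other stress response and degradation genes 5 rose and 2 fell, and Ppp1r15a, which restores translation after stress, had the lowest difference, -1.65 ± 0.14. Of 20 targets of ATF4 and CHOP 8 rose and 1 fell, with a median of 0.68, and Asns rose by 3.33 ± 0.33. Of 12 collagen-modifying enzymes 5 rose and 1 fell, Colgalt2, at -4.53 ± 0.50. Of the 10 cargo genes 8 rose, with a median of 1.97, led by the fibronectin gene Fn1 (3.52 ± 0.40). By day 56 against day 14, 8 cargo genes fell, among them Fn1 (-3.23 ± 0.40) and Col1a1 (-2.54 ± 0.24), while Colgalt2 (3.78 ± 0.50) and Vldlr, a lipoprotein receptor counted with the CHOP targets (1.58 ± 0.15), rose. Over all tested genes 8.49% fell and 5.71% rose in that comparison. Against sham at day 56, 0 genes of these lists were called in limma, where 0% of all genes rose and 0.00474% fell. Leukocyte markers summed to 183 to 653 CPM at day 56 and 559 to 2122 CPM at day 14, against 231 to 347 CPM in sham mice. The 6 measured plasma cell markers, cells rich in secretory machinery, summed to 94.2 to 180 CPM at day 56 and 246 to 362 CPM at day 14, against 47.0 to 74.6 CPM in sham mice, with 1 of 6 called higher at day 14, Sdc1. None of the 10 leukocyte and 6 plasma cell markers was at 0 throughout a group. The 7 endothelial markers summed to 78.9 to 145 CPM at day 56 and 64.4 to 113 CPM at day 14, against 169 to 273 CPM in sham mice, with 1 called lower at day 14. The 10 epithelial markers summed to 37.6 to 153 CPM at day 56 and 25.9 to 79.4 CPM at day 14, against 101 to 293 CPM in sham mice, with 1 called lower at day 14. The 7 mesenchymal markers summed to 17879 to 23801 CPM at day 56 and 37625 to 49084 CPM at day 14, against 20008 to 25661 CPM in sham mice, with 2 called higher and 3 lower at day 14. Heat shock and dissociation genes summed to 10564 to 11904 CPM at day 56 and 4426 to 6714 CPM at day 14, against 9489 to 14842 CPM in sham mice. The part of these in the members' changes was not tested.

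A last RNA comparison tested whether the change in culture differed from the change at day 14, in edgeR on the recovered reads of both tables. Strain, reporter, gate and treatment differ together and cannot be told apart. The change on 32 kPa gels was higher than that at day 14 for 2 members and lower for 21, where 21.8% and 25.2% of 16211 genes were, and the change on 0.2 kPa gels was higher for 2 and lower for 16, where 20.4% and 23.1% were. The 2 higher ones were Sec61b, by 1.44 ± 0.41 on 32 kPa and 1.03 ± 0.41 on 0.2 kPa gels, and Ddit3, by 1.19 ± 0.30 and 0.77 ± 0.30. This comparison had no correction for transcript length, and these transcripts have 552 and 871 bases. With that correction within CD1, the culture changes were 1.05 and 0.94 for Sec61b and -0.61 and -0.85 for Ddit3. The part of transcript length in the excess was not tested. The call of Sec61b on 0.2 kPa gels ended without CD1 32 kPa library 2, CD1 0.2 kPa library 1, 2 or 3, CD1 sham library 1 or 3, C57BL/6 day 14 library 1, 2, 3 or 4, C57BL/6 sham library 1, 2 or 4 (log2 0.73 to 1.12). That of Ddit3 ended without CD1 0.2 kPa library 2 or 3, CD1 sham library 1, 2 or 3, C57BL/6 day 14 library 2, 3 or 4, C57BL/6 sham library 1 or 2 (log2 0.54 to 0.82). Without both C57BL/6 sham libraries 1 and 2 neither was called on 0.2 kPa gels (0.78 and 0.45). Lower ones were led by Fkbp14 (-1.98 ± 0.24 and -1.69 ± 0.24), Fkbp7 (-1.93 ± 0.23 and -1.58 ± 0.22) and Ppic (-1.83 ± 0.17 and -1.86 ± 0.17). The difference was also called on both gels for Ppib (-1.24 ± 0.22 and -1.25 ± 0.22), Lman1 (-1.12 ± 0.19 and -0.94 ± 0.19) and Kdelr3 (-0.66 ± 0.18 and -0.68 ± 0.18). Hspa5 differed by -1.03 ± 0.28 and -0.78 ± 0.28, the last not called without CD1 0.2 kPa library 3 (-0.72) or CD1 sham library 2 (-0.75) or C57BL/6 day 14 library 1 (-0.60). For Sec61a1, Ssr3, Surf4 and Canx the difference was not called, with values between -0.18 and 0.23. In the wider lists Phgdh, which starts serine synthesis, had the highest excess on both gels (3.41 ± 0.26 and 3.37 ± 0.26), followed by Chac1 on 32 kPa (3.32 ± 1.05) and Psat1, the next serine enzyme, on 0.2 kPa gels (3.12 ± 0.33). Col3a1 (-8.50 ± 0.39 and -8.19 ± 0.38) and Col5a3 (-8.44 ± 0.50 and -8.04 ± 0.50) had the lowest. Of the 16 members that rose at day 14, 9 rose and 3 fell on 32 kPa gels, and 10 rose and 2 fell on 0.2 kPa gels. On 32 kPa gels 32.4% of all 18480 tested genes rose and 41% fell. On 0.2 kPa gels 31.9% rose and 39.2% fell. The shares among all genes that rose at day 14 were not counted, so this overlap is description only.

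**Figure D4:**
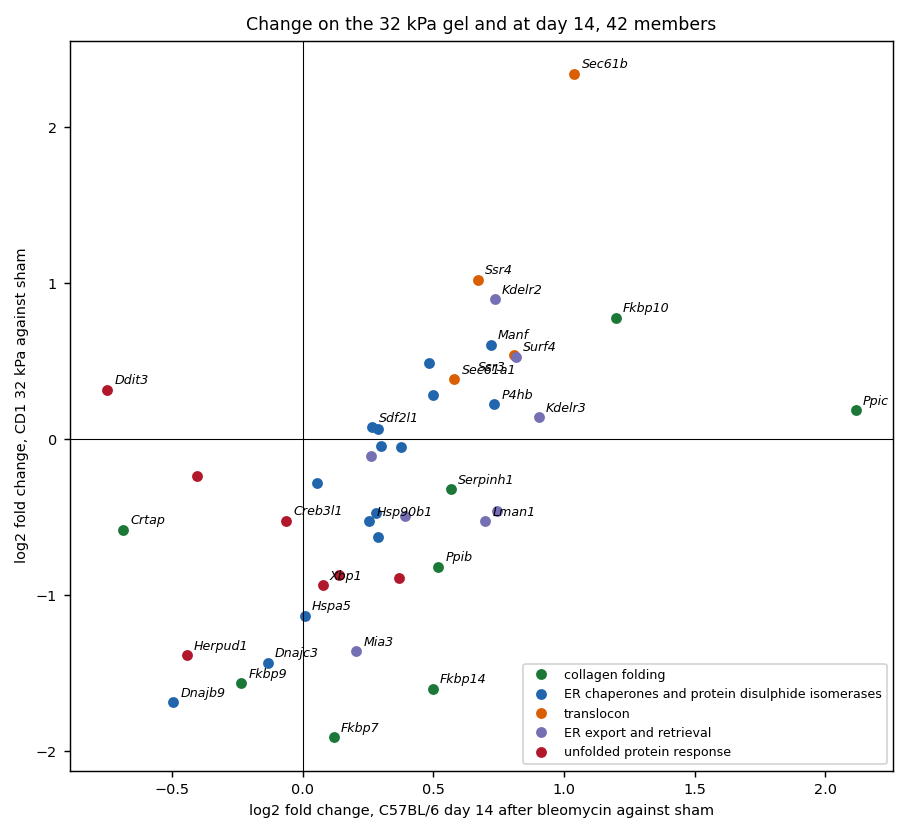
Log2 change on 32 kPa gels against CD1 sham (y axis) and at day 14 against C57BL/6 sham (x axis) for the 42 members, coloured by role. The translocon subunits lie in the upper right, Ppic lies far right at 2.12 with a change of 0.19 on the gel, and Fkbp7 and Dnajb9 lie lowest.

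Accessibility was read from the authors' deposited lists of changed ATAC regions (mm10), which hold group values and no values per library. In the authors' deposited table for 32 kPa gels against sham, a region over the start site was lower for 42 of 42 members, and so it was in that for 0.2 kPa gels. Within 10 kb of the start, 66.9% of genes had a lower region in the first and 67.3% in the second table. Over the start the background was high too: 55.1% and 55.2% of 20923 protein-coding genes had such a region, and 94.3% and 94.4% of the 6902 of them whose RNA level reached that of the lowest member. The authors' log2 folds at the members' start sites ran from -3.36 to -0.98 on 32 kPa gels and from -3.93 to -1.58 on 0.2 kPa gels. They were lowest for Ddit3 and highest for Crtap on each gel. Members whose RNA rose had median folds of -2.44 on 32 kPa and -3.03 on 0.2 kPa gels, and members whose RNA fell had -2.53 and -3.26, so the folds at the start were negative whichever way the RNA moved. In the authors' deposited table the region over the Sec61b start, chr4:47474013-47474799, had a log2 fold of -1.89 on 32 kPa and -2.66 on 0.2 kPa gels while its RNA rose. In the same tables the region over the Hspa5 start, chr2:34771580-34772679, which holds the promoter printed above, had folds of -3.22 and -3.71. The region over the Canx start, chr11:50325264-50326177, had folds of -2.75 and -3.31 in the authors' deposited tables, although Canx RNA rose and Hspa5 RNA fell.

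**Figure D5:**
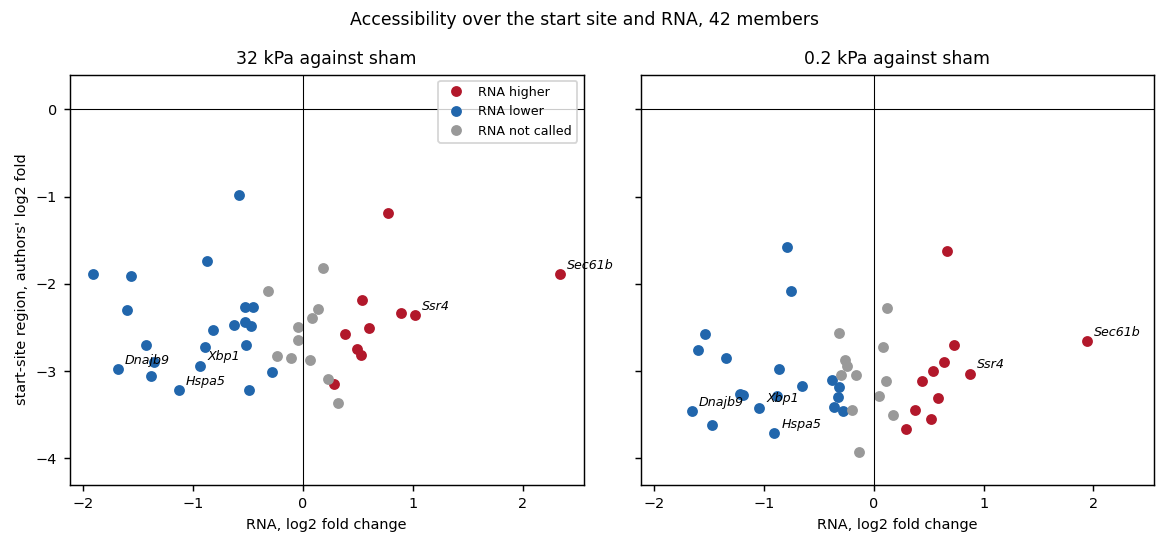
The authors' log2 fold of the accessible region over the start site (y axis) against the log2 RNA change (x axis) of the 42 members on 32 kPa (left) and 0.2 kPa gels (right), coloured by RNA call. All points lie below 0 on the y axis, whether the RNA change is negative or, as for Sec61b at the far right, positive.

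Higher regions within 10 kb of a start were few. In the authors' deposited table for 32 kPa gels against sham 4 members had one (12.8% of genes did): Hsp90b1 (log2 fold 3.73), Fkbp14 (2.23), Hspa5 (1.79) and Fkbp7 (0.61), all genes whose RNA fell on that gel. For 0.2 kPa gels 0 members had one (4.14% of genes). Over the start itself 0 members had a higher region on either gel, where 0.473% of genes did on 32 kPa and 0.0908% on 0.2 kPa gels. Between the gels, the authors' deposited table held 1 member region, centred 1545 bases downstream of the Xbp1 start at chr11:5522113-5522260, higher on 32 kPa gels (log2 fold 1.04, FDR 0.0133), where 3.42% of genes had a higher and 0.00478% a lower region. Over start sites these shares were 0.688% and 0%, and 0 members were among them.

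After injury 0 members had a changed region over the start. The share of genes with a higher or a lower one was 1.54% and 0.306% at day 14 against sham, 0.124% and 1.6% at day 56 against day 14, and 0.0574% and 0.0287% at day 56 against sham. In the authors' deposited table for day 14 against sham, Sdf2l1 (log2 fold 1.98), Fkbp7 (1.59), Dnajb11 (1.29) and Dnajc3 (1.02) had a higher region within 10 kb, where 12.9% of genes did, and none of these genes was called higher in RNA. Herpud1 (-1.58 and -1.29), Dnajb9 (-1.53), Pdia4 (-1.89) and Kdelr3 (-1.34) had a lower region, where 5.3% of genes did. The Kdelr3 region, chr15:79518934-79519069, is centred 2593 bases downstream of the start of a gene whose RNA rose by 0.90. In the authors' deposited table for day 56 against day 14 the regions near Sdf2l1, Fkbp7, Dnajb11 and Dnajc3 were lower (12.9% of genes) and those near Dnajb9 and Kdelr3 higher, as was 1 near Calr (3.56% of genes). Those of Herpud1 (-1.06) and Pdia4 (-1.35) were still listed as lower at day 56 against sham in the authors' deposited table, where 0.392% of genes had a lower region and 0 members (0.535% of genes) a higher one.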

How the data were processed

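Sorted mouse lung mesenchyme was measured by RNA-seq and ATAC-seq (21 libraries each). The submitters' processing notes name HISAT2, featureCounts, DESeq2, Bowtie2, MACS2, DiffBind and mm10, with no role or order. The strand setting of counting and the tool versions are named in no source used here. The deposited RNA signal values behave as gene counts that the authors divided by 1 factor per library: 100% came out as whole reads within 0.05 reads once each library's smallest step was taken as 1 read. The deposited ATAC lists hold the authors' log2 concentrations per group and log2 folds. Their FDR values were also computed by the authors, and the deposited lists hold no values per library.

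Entries without a symbol (855 in the CD1 table) were left out, and 0 columns of per-sample values went unused. Values were rescaled by median-of-ratios factors, genes with a mean under 1 were dropped, and log2(value + 1) was fitted by limma 3.58.1 (trend) in R 4.3.3 over all groups of a table, with Benjamini-Hochberg adjustment over all genes tested. Fold changes are on that scale, which understates those of low genes. Changes were compared across tables by edgeR 4.0.16 (quasi-likelihood) on recovered reads. DESeq2 1.42.0, other scalings, a correction for transcript length (lowess, span 0.3), a term for Xist above 1 CPM, replicate blocks and leaving out libraries were alternatives. The tests were also run on simulated counts with known changes in few genes and no shift with transcript length. The CD1 libraries differ from these in both respects, so that run does not bear on the scaling or the length shift there. A region was assigned to start sites within 10 kb.

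The members and lists were chosen with earlier results of these data known. Values in every library are given for a fixed set of 22 members and for the 3 called higher and 3 called lower with the largest change in each comparison. Over all the wider lists, the 2 called higher and 2 called lower with the largest change are named. Col5a2, Sdc1 and the members named for other reasons were chosen after their values were seen.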

Additional observations from a re-analysis of the deposited data

Results flagged for a closer look

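In 7 of the 126 groups of 4 libraries examined, 1 library stood apart from the other three by more than Dixon's criterion for the gap over the range, where chance gives about 1 in 20. The number flagged was thus near that given by chance, and the libraries below are named as description only. Levels are in RPKM. At day 56, Canx was 137.6 in library 4 and 121.3 to 123.5 in the others, and Kdelr3 was 108.2 in library 1 and 146.3 to 151.0 in the others. At day 14, library 1 was high for Hyou1 (10.7, others 8.0 to 8.4) and Creld2 (97.3, others 55.3 to 57.8). Library 4 of day 14 was low for Ssr3 (205.0, others 234.7 to 238.2) and Sec24d (74.3, others 81.5 to 82.7). In sham mice, Sec23a was 41.5 in library 3 and 29.2 to 31.1 in the others.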

How the results depend on the processing

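Over all alternatives 7070 values of single members kept their direction and side of the threshold (members called in neither fit are counted here whatever their sign), 225 lost a call, 86 gained one and 11 reversed. All 11 reversals came with the correction for transcript length, chosen after seeing the data. On 32 kPa gels they were Hyou1 (0.18), Sdf2l1 (-0.64), Manf (-0.32), Ppic (-0.41), Ddit3 (-0.61), Sec31a (0.30) and Kdelr3 (-0.38), and on 0.2 kPa gels Manf (-0.18), Ppic (-0.34), Sec31a (0.076) and Kdelr3 (-0.31). The cause was not tested.

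Other counts moved as follows, against 1 member lower at day 14 as reported: 4 with only the groups compared, 0 with the replicate block, 2 with length correction and 3 without the 4 libraries with few genes detected. These were C57BL/6 sham libraries 1 and 2 (16913 and 17561 genes with a read) and day 56 libraries 2 and 3 (16679 and 16563). The other C57BL/6 libraries had 19384 to 21381. Without the 4, the median log2 change of the members at day 14 was 0.24, against 0.33 with all libraries. DESeq2 called 1 member higher at day 56 against sham. The excess of the 0.2 kPa change over the day 14 change, called for 2 members, was called for 0 in limma and 0 without C57BL/6 sham libraries 1 and 2. Leaving out 1 library gave 0 to 1 members higher and 0 to 1 lower between the gels, 0 to 3 lower at day 14 and 0 to 2 with that excess.

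The replicate block gave 9 higher and 20 lower on 32 kPa gels, 10 higher and 19 lower on 0.2 kPa gels, 12 higher at day 14, and 1 higher and 10 lower at day 56 against day 14. Deviations of same-numbered libraries correlated at -0.25 to 0.12 in CD1 (3 of 9 over 0.1) and -0.19 to 0.14 in C57BL/6 (1 of 12). These deviations also carry each library's shift between short and long transcripts. Pairing by replicate number was thus neither shown nor excluded. No paired analysis was possible across the tables because they share no samples.

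Members with a listed accessible region depended on the window and the annotation. Between the gels (1 as reported) there were 3 within 50 kb, 0 at an FDR of 0.01 and 3 by the authors' annotation. At day 14 against sham (8) there were 0 within 2 kb, 24 within 50 kb and 16 by annotation, and at day 56 against day 14 (7) there were 0, 22 and 14. At day 56 against sham (2) there were 0 within 2 kb and 1 at an FDR of 0.01.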
